A study of Homo sapiens with 4 samples.

Results

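The BCL2 family genes that open the mitochondrial outer membrane or hold it closed were examined in MDA-MB-468 cells after knockdown of mutant p53. The 10 genes were taken as a fixed list of names. They comprise the effectors BAX, BAK1 and BOK, the anti-apoptotic genes BCL2, BCL2L1, BCL2L2, MCL1, BCL2A1 and BCL2L10, and BCL2L14, a less studied relative. Of these 10, 9 had a transcript cluster (the probe set of a gene on the array) naming them alone, among 18417 such genes in all, and each of the 9 had only that cluster. BCL2L2 shared its cluster with the read-through gene BCL2L2-PABPN1 and was given no value. RNA came from MDA-MB-468, an established line of breast cancer cells in which p53 is mutant (R273H) from the start, so that the control cells also carried the mutant. On 2 Affymetrix Human Gene 1.0 ST arrays the cells had received a lentiviral non-targeting shRNA (NS), and on the other 2 the lentiviral shRNA p53si-1, which is directed at p53. A single p53 shRNA was arrayed, and loss of mutant p53 cannot be told apart from other effects of that shRNA. The methods and the results of the study differ on the time between transduction and RNA extraction, so no time is attached to the values. The p53 transcript is not analysed here, and how far it was depleted is therefore not given.

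In mitochondrial apoptosis, BAX and BAK assemble into pores that release cytochrome c, which nucleates the apoptosome and activates caspase 9. BCL2, BCL-XL (from BCL2L1), BCL-W (from BCL2L2), MCL1 and BFL1 (from BCL2A1) bind and restrain BAX, BAK and their activators, and BH3-only proteins such as BMF occupy the groove through which they do so. Wild-type p53 is known to act on this balance by inducing BAX and several BH3-only genes. The comparison asked whether the transcripts of the effectors or of their guardians differed once mutant p53 was depleted.

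None of the 9 measured genes passed an adjusted p of 0.05 (limma, adjusted over all 18417 genes, of which 0.109% passed). None differed by over 1.5-fold, against 0.923% of all genes. At an unadjusted p under 0.05 from limma, 3 of the 9 were lower with p53si-1, namely BAK1, BCL2L10 and BCL2A1, and 0 were higher. Over all genes 6.8% were lower and 5.45% higher at that level. For 8 of the 9 the 95% interval of the difference lay inside 1.5-fold in either direction, which also held for 91.9% of all genes. The interval of BAK1 reached beyond it. The groups did not overlap in 6 of the 9, a separation seen in 42.5% of all genes. In 4 of the 9 they were apart with the p53si-1 arrays lower, against 22.6% of all genes. Among genes with groups apart, the p53si-1 arrays were lower in 4 of these 6 and in 4160 of 7828 over all genes. The median difference of the 9 genes was -0.05 on the log2 scale and that of all genes was -0.01. Without regard to sign, the median was 0.16 for the 9 genes and 0.09 for all genes. With 2 arrays per group an exact permutation test cannot give a two-sided p below 0.333.

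**Figure D1:**
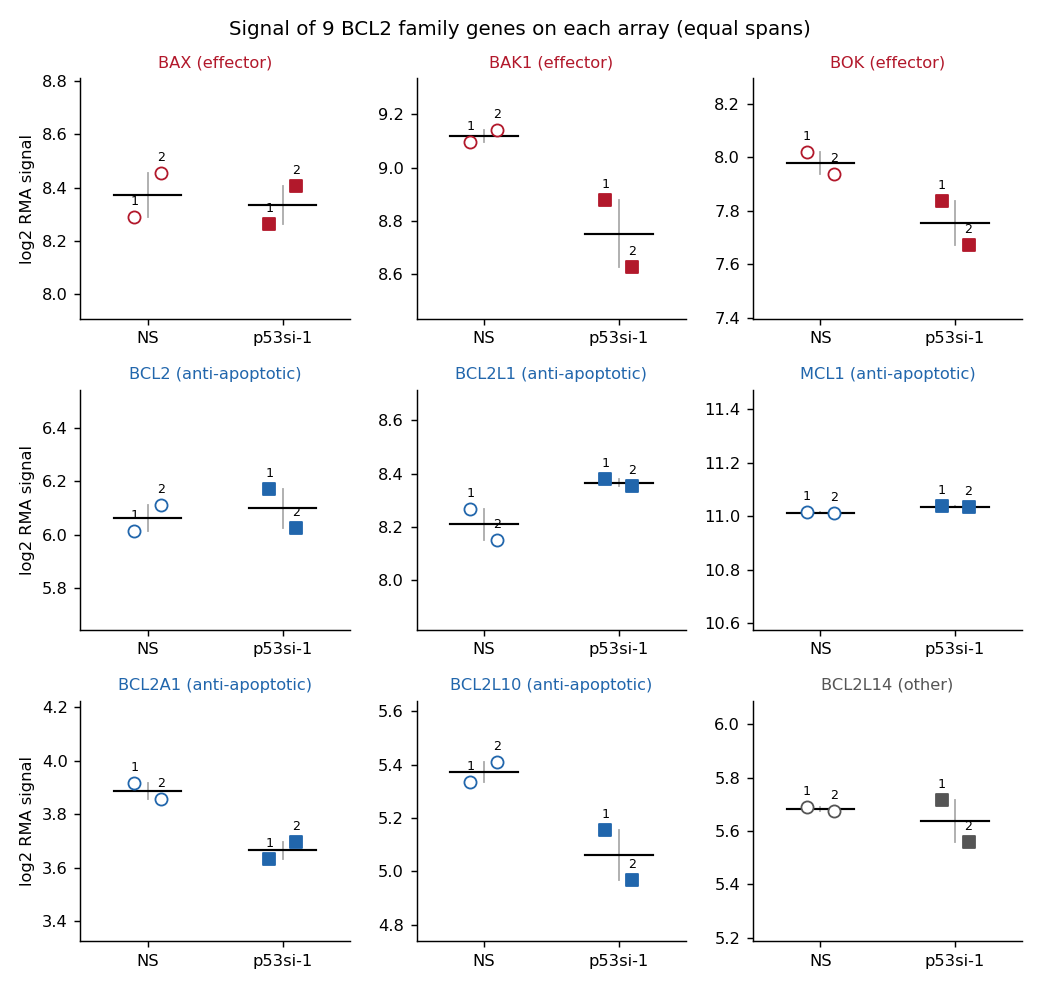
Log2 RMA signal (y axis) of the 9 measured genes on each NS array (open circles) and p53si-1 array (filled squares). Numerals are replicate numbers, horizontal bars are group means, vertical lines join the arrays of a group, and every panel spans the same range. The groups are apart in BAK1, BOK, BCL2L1, BCL2A1 and BCL2L10, are apart by very little in MCL1, and overlap in BAX, BCL2 and BCL2L14.

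The effectors are shown first with the promoters of BAX, a textbook target of wild-type p53, and of BAK1, the gene with the largest difference among the 9. The 250 bases before each RefSeq start site (GRCh38.p14) are printed 5′ to 3′, on the plus strand of chr19:48954625-48954874 for BAX and on the minus strand of chr6:33580277-33580526 for BAK1. Capitals mark a match to the p53 response element decamer.
BAX: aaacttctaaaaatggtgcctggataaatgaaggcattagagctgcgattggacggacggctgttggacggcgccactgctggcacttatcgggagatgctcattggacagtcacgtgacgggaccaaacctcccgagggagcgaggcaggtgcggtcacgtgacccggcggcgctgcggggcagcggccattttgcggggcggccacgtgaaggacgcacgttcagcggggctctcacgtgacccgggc
BAK1: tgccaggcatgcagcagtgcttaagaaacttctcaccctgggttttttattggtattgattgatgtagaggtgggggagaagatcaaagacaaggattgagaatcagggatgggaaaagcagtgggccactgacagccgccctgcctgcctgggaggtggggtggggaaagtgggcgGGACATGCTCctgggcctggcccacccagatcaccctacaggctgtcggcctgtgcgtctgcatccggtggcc

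The decamer, of which a full p53 response element holds a pair, was searched on both strands. It occurred once in BAK1, from 73 to 64 bases before the start site. The consensus is the same on either strand, so that this is a single match. RefSeq promoter windows (300 bases, 50 of them after the start site) were at hand for 7 of the 10 genes, 9 windows in all. Of these 9 windows 1 held a match, that of BAK1. Over all 35116 windows 6.63% held one. A match describes letters only, and for BAX and the other genes without one nothing follows about p53 binding.

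BAK1 encodes the effector that resides in the outer membrane of mitochondria (chr6:33572552-33580276). The study reports that BAK protein could not be detected in these cells, so the values below describe the transcript only. For BAX, BOK, BCL-XL and MCL1 it reports no significant difference in protein on immunoblots after p53 knockdown. Those blots measure protein, while the arrays measure RNA. With NS the log2 signals of BAK1 were 9.10 and 9.14, and with p53si-1 they were 8.88 and 8.63. Both p53si-1 arrays lay below both NS arrays, and the p53si-1 arrays were farther from each other than the NS arrays were. The means were 9.12 ± 0.033 (SD, n = 2 arrays) with NS and 8.75 ± 0.18 (SD, n = 2 arrays) with p53si-1, or 77.6% of the NS level. The difference was -0.37 on the log2 scale, with a 95% interval from -0.63 to -0.10, and it did not pass over all genes (adjusted p = 0.268 from limma). In absolute size it lay at percentile 95.5 of all genes. The size depended on p53si-1 replicate 2, without which the difference was -0.24 (adjusted p = 0.628 from limma), while without p53si-1 replicate 1 it was -0.49. Over all alternatives tried its adjusted p from limma ran from 0.129 to 0.628. BAK1 was also the single gene of the 9 to differ by over 0.32 on the log2 scale, which 6.43% of all genes did.

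BAX, the effector that moves from the cytosol to mitochondria when activated (chr19:48954875-48961798), read 8.29 and 8.46 with NS and 8.26 and 8.41 with p53si-1 on the log2 scale. The groups overlapped, and in both groups replicate 2 was the higher array by a similar step, 0.17 with NS and 0.14 with p53si-1. The difference between the group means was -0.04, and its 95% interval from -0.28 to 0.21 corresponds to between 0.821 and 1.15 times the NS level. Between same-numbered arrays it was -0.03 for replicate 1 and -0.05 for replicate 2. The sign of the difference was not stable, since it was 0.043 without NS replicate 2 and 0.033 without p53si-1 replicate 1.

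BOK, a BAX-like protein that can act apart from BAX and BAK (chr2:241551393-241574131), had log2 signals of 8.02 and 7.94 with NS and 7.84 and 7.67 with p53si-1. The groups did not overlap, and the gap between the lower NS array and the higher p53si-1 array was smaller than the gap between the p53si-1 arrays. Its difference was -0.23 (95% interval -0.45 to 0.0037, adjusted p = 0.411 from limma), and without p53si-1 replicate 2 it was -0.14. All 3 effectors had a lower mean with p53si-1 over the 4 arrays, as did 9693 of all 18417 genes. For BAX the sign turned without either of the 2 arrays named above. The median difference of the 3 effectors was -0.23, which is the value of BOK, and none of them passed. Whether BAX and BAK1 differ from each other in response was not tested, and their intervals overlap.

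**Figure D2:**
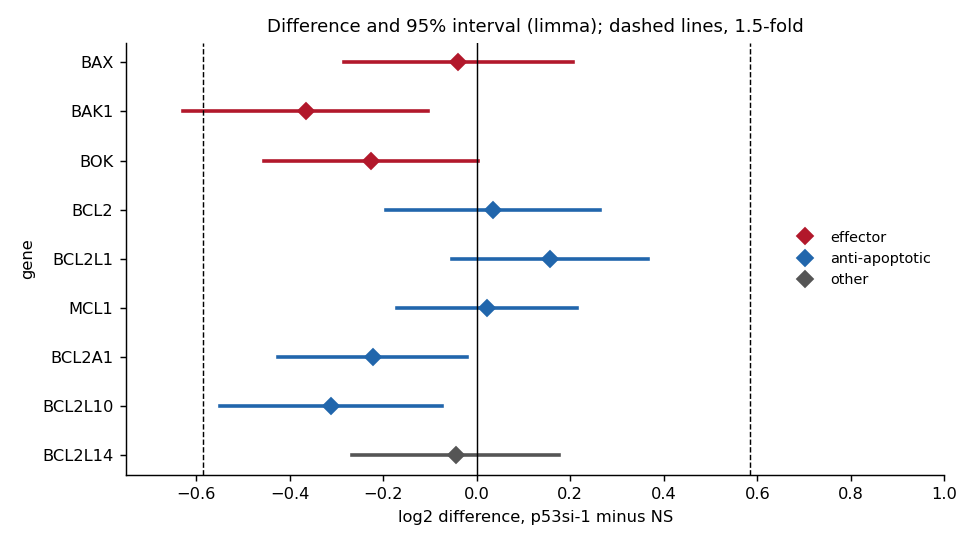
Difference of the group means (x axis, log2, p53si-1 minus NS) of each measured gene (y axis). Diamonds are the differences, bars their 95% intervals from limma, and dashed lines mark 1.5-fold. All intervals except that of BAK1 lie between the dashed lines, and those of BAK1, BCL2A1 and BCL2L10 do not reach 0.

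Of the anti-apoptotic genes, BCL2L1 has as its main product BCL-XL, which binds and restrains BH3-only proteins and BAX (chr20:31664452-31723963). Its log2 signals were 8.27 and 8.15 with NS and 8.38 and 8.35 with p53si-1, so that both p53si-1 arrays were above both NS arrays. The difference was 0.16 (95% interval -0.05 to 0.37, adjusted p = 0.533 from limma), which allows between 0.964 and 1.29 times the NS level. Without NS replicate 2 it was 0.098. The cluster does not tell the long isoform BCL-XL from the short, pro-apoptotic BCL-XS.

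MCL1, a short-lived protein that restrains BAK in particular (chr1:150574558-150579610), was the brightest of the 9, at 11.02 and 11.01 with NS and 11.04 and 11.03 with p53si-1. Its arrays were nearly identical within each group. The groups were apart, but by 0.02 only (95% interval -0.17 to 0.21, adjusted p = 0.945 from limma), and the sign changed to -0.016 when the arrays were quantile normalized. The interval is set by the spread pooled over genes as well as by that of MCL1 and allows between 0.888 and 1.16 times the NS level.

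BCL2, the founder of the family (chr18:63123346-63320090), had a mean log2 signal with NS below that of most genes, at percentile 42.8, where MCL1 lay at percentile 97.7. These percentiles describe how bright each probe set was and do not order the genes by RNA amount. BCL2 read 6.01 and 6.11 with NS and 6.17 and 6.02 with p53si-1. The groups overlapped, and the same-numbered arrays differed in opposite directions, by 0.16 for replicate 1 and -0.09 for replicate 2. The difference of the means was 0.03 (95% interval -0.19 to 0.26). BCL-2 protein, too, was reported by the study as not detected in these cells.

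The other anti-apoptotic genes were dim. BCL2L10, whose product is best known from oocytes (chr15:52109263-52112775), read 5.33 and 5.41 with NS and 5.15 and 4.97 with p53si-1. Both p53si-1 arrays were lower, with a difference of -0.31 (95% interval -0.55 to -0.07, adjusted p = 0.296 from limma), the second in size among the 9. BCL2A1, a target of NF-kB that is best known in blood cells (chr15:79960892-79971196), read 3.92 and 3.86 with NS and 3.63 and 3.70 with p53si-1. These values were apart by more than the arrays of either group (difference -0.22, 95% interval -0.42 to -0.02, adjusted p = 0.363 from limma). The NS means lay at percentiles 33.5 and 13.4 of all genes, and whether either probe set was above background cannot be read from these values. Leukocyte markers were read beside BCL2A1, and their part in its values was not tested. Of 7 measured, 1 (CD14) was above the median signal of all genes, PTPRC, which encodes CD45, read between 3.01 and 3.14 on the 4 arrays, and the mean of the list was 5.01 and 4.96 with NS and 5.04 and 4.95 with p53si-1.

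BCL2L14, which encodes BCL-G (chr12:12049861-12099695), read 5.69 and 5.68 with NS and 5.72 and 5.56 with p53si-1. The groups overlapped, and the difference was -0.05 (95% interval -0.27 to 0.18). Of the 5 measured anti-apoptotic genes, 3 had a higher mean and 2 a lower one with p53si-1, with a median of 0.02. The higher ones were the genes nearest to no difference (BCL2 and MCL1) and BCL2L1.

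The arrays of a group differed from each other in several of the 9 genes. Replicate 2 minus replicate 1 of p53si-1 was -0.25 for BAK1, -0.19 for BCL2L10 and -0.15 for BCL2, where the same gap between the NS arrays had the opposite sign, at 0.05, 0.08 and 0.10. For BCL2L14 it was -0.16 with p53si-1 and -0.01 with NS. In BAX and BOK the gaps had the same sign in both groups, at -0.16 with p53si-1 and -0.08 with NS for BOK. Over all genes the median absolute gap between the p53si-1 arrays was 0.11 and that between the NS arrays was 0.10. In 7 of the 9 genes the difference had the same sign for replicate 1 and replicate 2, the exceptions being BCL2 and BCL2L14. In the 6 genes with groups apart the separation itself fixes this. The remaining gene is BAX, at -0.03 and -0.05. The share over all genes was not counted.

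**Figure D3:**
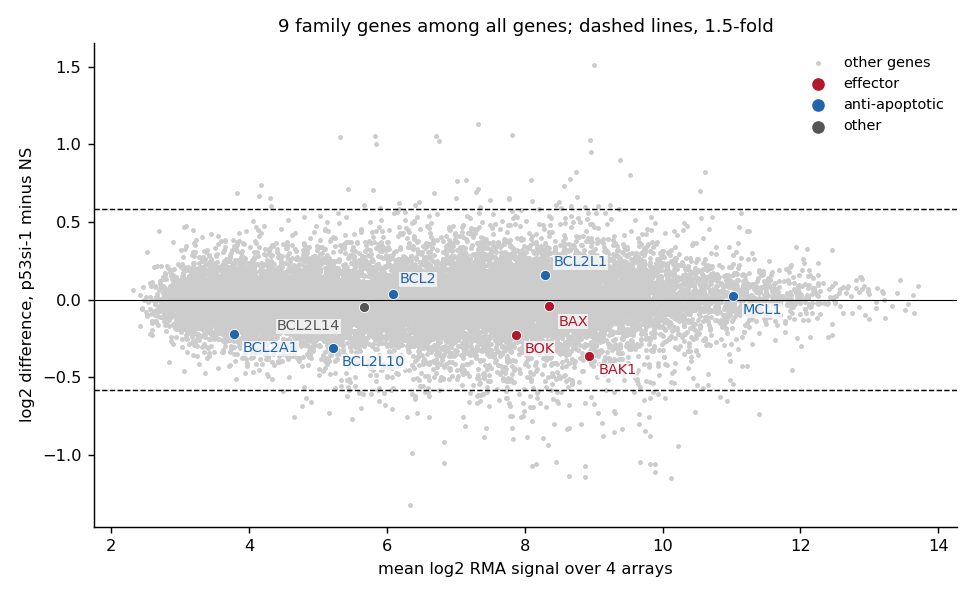
Difference (y axis, log2, p53si-1 minus NS) of all 18417 genes against their mean log2 RMA signal over the 4 arrays (x axis), with the 9 family genes in color and dashed lines at 1.5-fold. The 9 lie inside the dashed lines, BAK1 the closest to them.

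The remaining genes of the pathway were read from lists. Of 8 measured BH3-only genes, 4 were higher and 4 lower, with a median of 0.04, and none passed over all genes. BMF, which binds the anti-apoptotic proteins, was the exception in size at 0.71 (95% interval 0.51 to 0.92, adjusted p = 0.059 from limma). The next were BAD, which binds BCL-XL and BCL2, at -0.22 and PMAIP1, which encodes NOXA, the partner of MCL1, at 0.12. The interval of BMF does not meet that of any of the 9 genes above. Of 8 other relatives, including the mitophagy receptors of the BNIP3 type, 5 were higher and 3 lower (median 0.04), with BNIP3L at 0.15, BCL2L13 at -0.11 and BNIP2 at 0.06, and none passed.

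Among 14 measured membrane partners and regulators of BAX and BAK, 12 had a higher mean and 2 a lower one, with a median of 0.05, where 8723 of all 18417 genes had a higher mean. None passed. TMBIM6, which encodes BAX inhibitor-1 of the endoplasmic reticulum, read 11.996 and 11.86 with NS and 12.31 and 12.20 with p53si-1 (difference 0.33, 95% interval 0.10 to 0.55, adjusted p = 0.249 from limma). The groups of TMBIM6 did not overlap. MOAP1, an adaptor that binds BAX, was at 0.20 and the mitofusin MFN1 at 0.12. VDAC2, the channel that retains BAK at mitochondria, was at 0.09.

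Of 8 measured genes of the apoptosome and of the factors released from mitochondria, 4 were higher and 4 lower (median -0.02). APAF1, the scaffold of the apoptosome, was at 0.26 (95% interval 0.04 to 0.48, adjusted p = 0.342 from limma), XIAP, which inhibits caspases, at 0.09, CASP9 at -0.08 and CYCS, cytochrome c itself, at -0.03. Among 9 genes that set the turnover of MCL1 protein, 5 were higher and 4 lower (median 0.04). The deubiquitinase USP9X was at -0.24, the ubiquitin ligase HUWE1 at -0.22 and USP13 at -0.21. None of these passed, and MCL1 protein cannot be read from them.

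**Figure D4:**
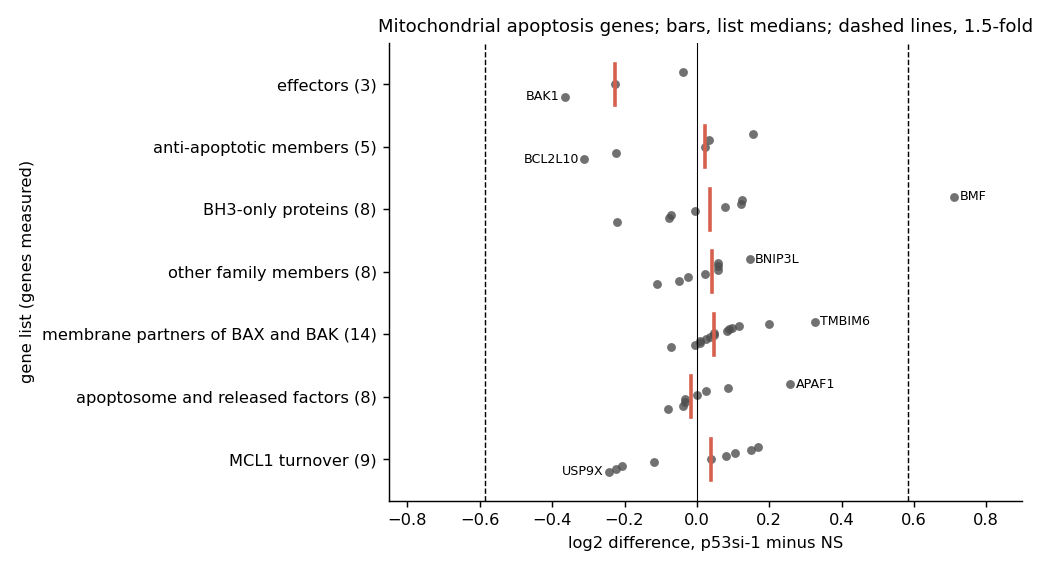
Difference of each measured gene (x axis, log2, p53si-1 minus NS) in 7 lists of mitochondrial apoptosis genes (y axis, number measured in parentheses). Points are genes, red bars list medians, and the named point is the gene with the largest absolute difference. BMF at 0.71 is the only gene outside the dashed lines at 1.5-fold.

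The genes most like BAK1 in pattern were sought over the 4 arrays, which are few for such a search. With BAK1, 141 other genes correlated at Pearson's r over 0.99 across the 4 arrays. The closest above the median signal were PSMB2 (r = 1.00), PEG10 (r = 1.00) and SNAPC1 (r = 0.999), whose own differences were -0.02, -0.15 and -0.12. They share the shape of BAK1 over the arrays and not its size.

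The label of the cells was checked against markers. All 8 measured genes of breast epithelium were above the median signal, against 1 of 7 leukocyte, 1 of 6 fibroblast (COL1A1) and 1 of 5 endothelial markers (KDR). Epithelial markers averaged between 11.14 and 11.30 on the 4 arrays, fibroblast markers between 4.80 and 4.93 and endothelial markers between 5.21 and 5.36. Within these lists KRT5, a basal keratin, differed by -0.41 (adjusted p = 0.216 from limma) and KDR, a VEGF receptor, by 0.50 (adjusted p = 0.275 from limma), both with groups that did not overlap and both by more than BAK1. Their part in the values of the BCL2 family genes was not tested. The loading and reference genes of the study did not pass, with ACTB at -0.07, GAPDH at -0.09 and B2M at 0.05. Since RNA was taken from whole cultures, a change in a share of the cells and a change in RNA per cell cannot be told apart.

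**Figure D5:**
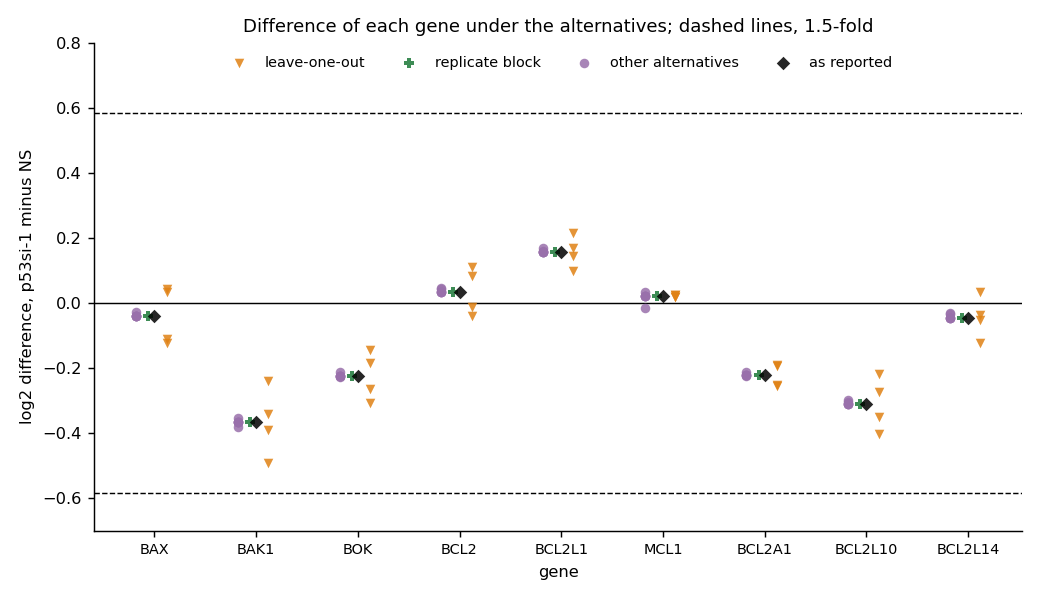
Difference (y axis, log2, p53si-1 minus NS) of each measured gene (x axis) as reported (diamonds), without each array in turn (triangles), with the replicate number as a block (crosses) and under the other alternatives (circles). Every value lies inside 1.5-fold (dashed lines), and the sign changed in BAX, BCL2, MCL1 and BCL2L14.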

How the data were processed

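Each array was hybridized with labeled cDNA from total RNA, and the authors summarized the probes of every transcript cluster into 1 value, with GCOS, Affymetrix Expression Console and RMA named in the submitters' processing notes. The deposited values were taken to be log2 RMA signals from their range (1.75 to 14.3) and nearly equal array medians (5.66 to 5.69); no source used here gives the settings of RMA. RMA makes array distributions alike, so that a shift common to most transcripts is lost, and it can understate fold changes. The legend of the study says that both experiments were done independently, and does not say which arrays made up each.

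No further normalization was applied and dim genes were kept. Of 33297 clusters, 19460 name 1 symbol in the platform annotation, 1754 several and 12083 are unnamed here; 0 symbols changed when checked by Entrez gene number against RefSeq (GRCh38.p14). Each gene was represented by its brightest cluster. Groups were compared by the moderated test of limma 3.58.1 under R 4.3.3 (functions lmFit and eBayes, whose prior added 4.20 degrees of freedom to the 2 among arrays). P-values were adjusted by Benjamini-Hochberg over 18417 genes, and the replicate number was not a block. A criterion of 1.5-fold was also counted. The fit was also run on simulated data, and how many changed genes it recovered is not given here. Precision is limited by how few arrays there were.

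The 10 genes and the lists were chosen with earlier results of these data known. Named were every gene of the 10, the 3 largest absolute differences of each list with BMF, the 3 genes most like BAK1, and ACTB, GAPDH and B2M; VDAC2 and CYCS, and the markers named, were added after their values were seen. The alternatives took another cluster per gene, left out dim genes, renormalized the signals, fitted a trended or robust prior variance, blocked on the replicate number, omitted each array in turn and moved the fold criterion.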

Additional observations from a re-analysis of the deposited data

How the results depend on the processing

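With 2 arrays per group the precision is limited to the intervals given, and signal over background is not known for the dim genes. The count of family genes at an adjusted p under 0.05 was 0 under each of the 12 alternatives tried for it, leave-one-out fits included, in which a lone array is taken to vary like those of the other group. Over all genes the calls moved from 20 to 220 with genes above the median signal only, 149 with a signal-dependent prior variance, 62 with median centring, 12 with the replicate block, 4 with the lowest cluster or a robust prior variance, and 0 or 1 without any 1 array. The count over 1.5-fold stayed 0. Apart from the fold criterion, it could move only under quantile normalization, median centring and the omission of an array. With the criterion lowered to 0.32 on the log2 scale it was 1 (BAK1), against 6.43% of all genes. The count with non-overlapping groups was 6 of the 9 as reported, where 42.5% of all genes separated. It was 5 with quantile normalization and 4 of the 5 genes above the median signal. Without 1 array it can only stay or rise, because fewer arrays have to separate. The share over all genes was not counted under these alternatives, so nothing is read from these counts.

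With the replicate block 0 family genes passed, and the lowest adjusted p was 0.183 for BAK1. Same-numbered arrays deviated together across genes (correlation 0.242), but no source says that the numbers mark a shared culture or day.

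Of 104 single-gene values under alternatives, 0 passed. The difference itself could move only under quantile normalization, median centring and the omission of an array, and of those 54 values 6 changed sign. Without 1 array BAX ran from -0.12 to 0.043 (above 0 without NS replicate 2 and, at 0.033, without p53si-1 replicate 1), BCL2 from -0.040 to 0.11 (below 0 without p53si-1 replicate 1 and, at -0.014, without NS replicate 1), and BCL2L14 from -0.12 to 0.034 (above 0 without p53si-1 replicate 2), while MCL1 was at -0.016 with quantile normalization. BAK1 ran without 1 array from -0.49 to -0.24. The cause was not tested.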
